A study of Homo sapiens with 3 samples.

Results

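The genes described here are 37 members of the hypoxia-inducible factor (HIF) system: 8 genes for the HIF subunits, their oxygen-sensing hydroxylases and VHL, and 29 known HIF targets. They were listed by name and found by their probe sets, former symbols included, among 18132 genes with a probe set of their own. Of the 37, 34 had at least 1 such probe set, 113 in all. EGLN2 and SLC2A3 had probe sets shared with another gene, 2 and 5 of them, which were not used, and no probe set used here carried the symbol CA9. A gene was read from its brightest probe set (by mean signal). It was compared between 2 arrays where its signal on at least 1 of them reached a floor of 5.94, the median of all signals on the log2 scale. On that rule 31 members entered, 25 targets and 6 regulators, while EGLN3, CA12 and RORA lay below the floor on all 3 arrays.

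The cells were KYSE150, a cell line grown from a human squamous carcinoma of the esophagus, measured on PrimeView arrays as log2 RMA signals. The study compared 3 groups of 1 array each: cells overexpressing LOXL2 Δe13, a splice form of the amine oxidase LOXL2, cells overexpressing wild-type LOXL2, and cells carrying an empty vector. The parental line and the array type are shared by the 3 groups; whether cells were pooled, cloned or transiently transfected, and the oxygen they grew in, are not stated in the labels. With 1 array a group there was no replicate, hence no test, standard error or p-value. Differences below are of log2 signal and describe these 3 arrays.

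HIF is a pair of proteins, an oxygen-labile alpha subunit (HIF1A or EPAS1, also called HIF-2 alpha) and the stable partner ARNT. When oxygen is present, the EGLN prolyl hydroxylases mark the alpha subunit, VHL binds the mark and the subunit is degraded, and HIF1AN blocks its coactivator binding. Because this control acts on protein, the messenger level of the subunits is a poor guide to HIF activity, and the targets are the usual readout. In squamous carcinomas, targets for glucose uptake, acid export, angiogenesis and mitophagy are well known as markers of oxygen-poor tumour regions.

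HIF binds a short core, ACGTG, on either strand. The promoters shown here are those of members that differed at least 1.5-fold in some comparison and held that core upstream of the start. HILPDA, which also differed by that size, had no window in the sequence table and was not searched. They are the 250 bases before the RefSeq gene start in build GRCh38.p14, 5′ to 3′ on the gene's strand, with each core on either strand in capitals. ANKRD37 lies at chr4:185396591-185396840 on the plus strand, BHLHE40 at chr3:4979187-4979436 on the plus strand, BNIP3 at chr10:131981924-131982173 on the minus strand, and DDIT4 at chr10:72273674-72273923 on the plus strand.
ANKRD37: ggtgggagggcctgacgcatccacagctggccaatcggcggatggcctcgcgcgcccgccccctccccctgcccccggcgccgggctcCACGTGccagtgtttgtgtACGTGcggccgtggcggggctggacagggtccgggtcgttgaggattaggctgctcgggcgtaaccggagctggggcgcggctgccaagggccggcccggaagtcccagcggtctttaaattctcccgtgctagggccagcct
BHLHE40: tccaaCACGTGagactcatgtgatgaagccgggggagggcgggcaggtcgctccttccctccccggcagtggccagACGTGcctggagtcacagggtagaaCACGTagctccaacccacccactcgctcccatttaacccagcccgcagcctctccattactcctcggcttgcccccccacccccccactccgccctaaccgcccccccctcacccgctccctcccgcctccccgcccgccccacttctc
BNIP3: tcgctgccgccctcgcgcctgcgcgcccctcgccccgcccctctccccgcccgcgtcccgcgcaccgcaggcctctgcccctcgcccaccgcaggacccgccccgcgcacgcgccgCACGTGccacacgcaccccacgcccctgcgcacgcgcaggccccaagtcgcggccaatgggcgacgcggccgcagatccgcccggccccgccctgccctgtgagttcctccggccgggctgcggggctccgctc
DDIT4: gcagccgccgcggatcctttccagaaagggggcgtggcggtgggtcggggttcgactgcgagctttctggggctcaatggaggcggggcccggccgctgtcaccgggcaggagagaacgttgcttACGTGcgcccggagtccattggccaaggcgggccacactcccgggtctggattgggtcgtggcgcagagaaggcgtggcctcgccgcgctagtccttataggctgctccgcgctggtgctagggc

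In the ANKRD37 window a core began 143 bases before the start, and the palindrome CACGTG, which reads ACGTG on both strands, began 162 bases before it. BHLHE40 held the palindrome 245 bases before the start and single cores at 174 and 149. BNIP3 held the palindrome at 134, and DDIT4 a single core at 125. CACGTG is also the E-box, bound by MYC-family factors and by the BHLHE40 protein itself, so these matches overlap another motif. Windows of 300 bases, 250 before the start and 50 after it, matched 30 members. The core was in at least 1 window of 16 of these (53.3%), of 14 of 23 targets (60.9%) and of 2 of 7 regulators, against 24.9% of all 27305 genes; genes with several starts have more chances. The palindrome was in 7 of the 30, against 8.77% of all genes. Known HIF targets were listed for being targets, so this share describes the list. A match is a string of letters and not a binding site.

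The main pattern was a lower signal of many targets in the wild-type array, with the Δe13 array near the control. Wild-type LOXL2 had the lowest of the 3 signals for 18 of 25 targets, against 36.7% of all 10954 genes above the floor on some array. Against the wild type, the Δe13 array was higher for 24 of 25 targets, with VEGFA the exception, against 45.2% of all genes. Their median difference was 0.26, and that of all genes was -0.01. Against the empty vector, 18 of 25 targets were lower in the wild-type array (49.9% of all genes were lower), with a median of -0.20 against 0.00 over all genes. In the Δe13 array 19 of 25 were higher than the control (48.2% of all genes were higher), with a median of 0.09 against -0.01. The comparisons share arrays, so they are not independent of each other.

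At a size of 1.5-fold, 5 of the 31 members were lower in the wild-type array than in the control: HILPDA, ANKRD37, ADM, DDIT4 and BHLHE40. Over all genes 0.919% were this much lower, and 2.02% this much higher, a size no member reached upward. Against the wild type, 4 members had a Δe13 signal at least 1.5-fold higher, ANKRD37, HILPDA, ADM and BNIP3, and 0 were lower; over all genes these shares were 0.184% and 0.12%. Against the control, 0 members differed by 1.5-fold in the Δe13 array, where 0.359% of all genes were higher and 0.303% lower by that size. A 1.3-fold size gave 8 members higher in Δe13 than in wild type, and a 2-fold size gave 2.

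**Figure D1:**
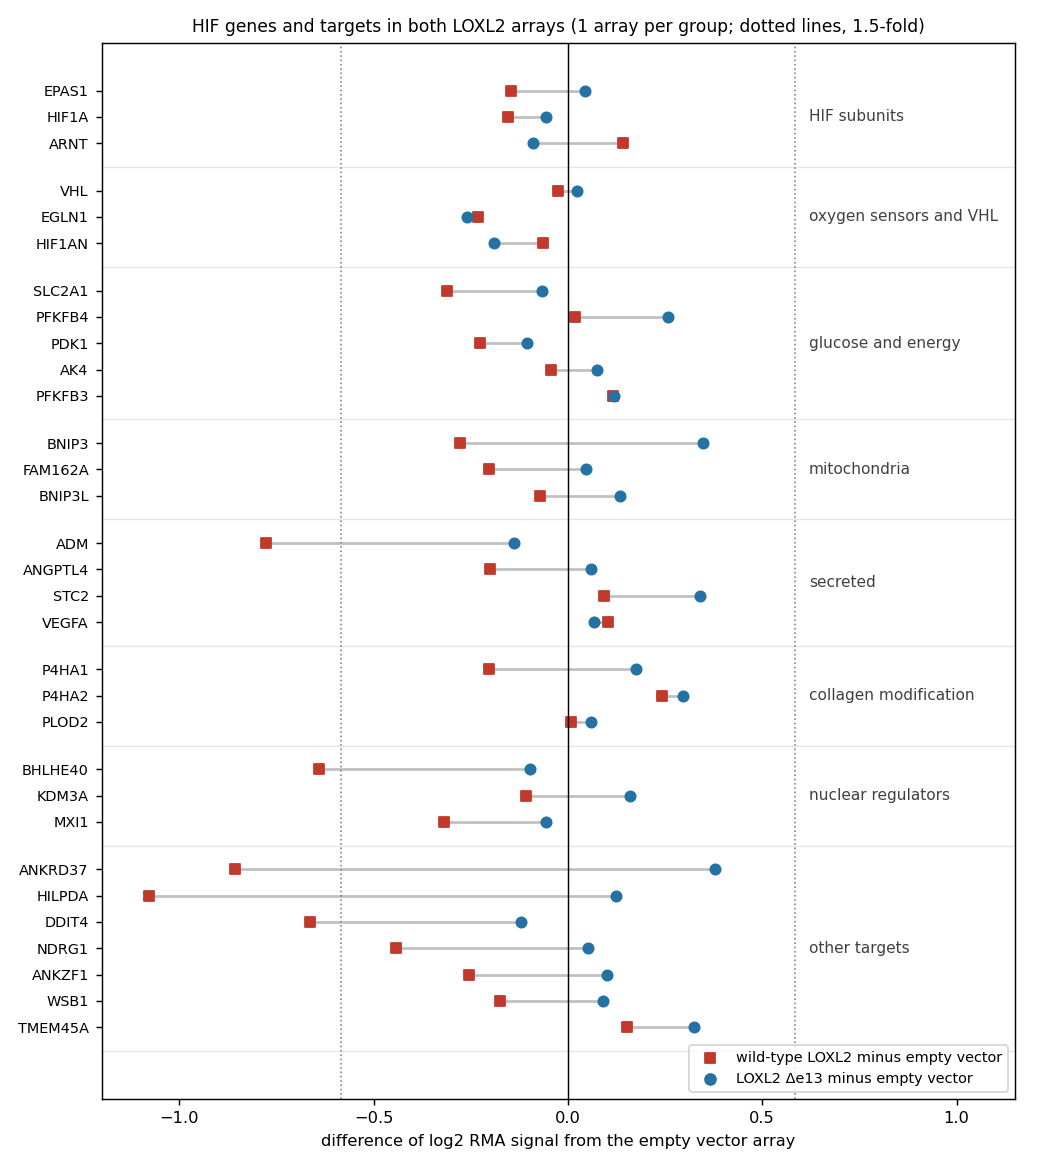
Log2 difference from the empty vector array (x axis) of the 31 members above the floor, grouped by role; squares are the wild-type LOXL2 array, circles the Δe13 array, 1 array each, with no error bar because there are no replicates. The circles of HILPDA and ANKRD37 lie at 0.12 and 0.38 and their squares at -1.08 and -0.86, the widest gaps in the plot.

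Some control probe sets moved in the same direction as the targets and others did not, and their part in the result was not tested. Background probe sets with 17 or more G or C bases were lower in the wild-type array than in the control by a median of -0.23 (range -0.29 to -0.18, 9 probe sets). For Δe13 minus wild type they were higher, by a median of 0.16, at most 0.22. PolyA spike-in probe sets (RNAs added to a sample before labelling) gave medians of -0.11 and 0.12 in these comparisons. The 14 background probe sets with 16 or fewer G or C bases had medians of -0.01 and 0.02. The 18 probe sets of hybridisation spike-ins (added after labelling) had medians of -0.09 and -0.08, and for Δe13 minus wild type they ran from -0.14 to -0.0039, opposite to the targets. If differences were taken relative to the spike-ins, a setting chosen after seeing the data, the target median for Δe13 minus wild type was 0.14, against -0.14 for all genes, with 19 of 25 targets above 0. For wild type minus control it was -0.09, against 0.11 for all genes, with 15 of 25 below 0. On that scale BHLHE40 and DDIT4 missed the 1.5-fold size against the control, at -0.53 and -0.55, and BNIP3 and ADM missed it for Δe13 minus wild type, at 0.50 and 0.51. The G and C content of the members' own probes is not known here. The target median of -0.20 for wild type minus control lay within the range of the background probe sets rich in G and C and below the lowest of those poor in them, -0.12. HILPDA, ANKRD37, ADM, DDIT4 and BHLHE40 were at -1.08, -0.86, -0.78, -0.66 and -0.64. These members were picked for being at least 1.5-fold lower, so a range of 9 background probe sets cannot show what part the array shift had in them.

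**Figure D2:**
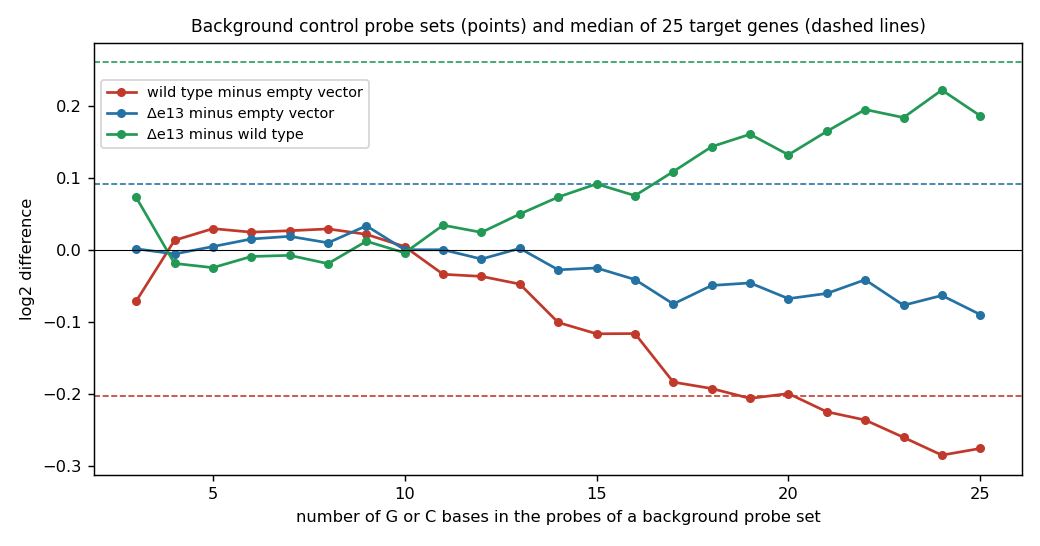
Log2 difference (y axis) of the 23 background control probe sets by their number of G or C bases (x axis), for the 3 comparisons; dashed lines give the median of the 25 targets in the same comparison. The wild-type array departs from both others as the number of G or C bases grows, to -0.29 against the control, beyond the target median of -0.20.

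The 3′ minus 5′ signal of ACTB was 1.38 in the Δe13, 1.46 in the wild-type and 1.26 in the empty vector array, and that of GAPDH lay between -0.03 and 0.00. Of the 4 probe sets of LOXL2, 1 was higher than the control by 5.71 in Δe13 and 5.16 in the wild type and another by 2.56 and 2.69. The wild type alone was higher on one more, by 6.59 (-0.05 in Δe13), and neither array on the remaining one. The 7 of 10 squamous markers with a probe set of their own reached the floor on at least 1 array, with a summed level of 12.90 in the Δe13, 12.88 in the wild-type and 13.19 in the control array. Of these markers 6 of 7 were lower than the control in each LOXL2 array. KRT15, a basal keratin, read 10.60 in Δe13, 10.43 in the wild type and 11.43 in the control, and KRT14, another, 7.30, 7.08 and 7.76. In the wild type these were gaps from the control like those of the targets that differed most, and their part in the target result was not tested. For Δe13 minus wild type 3 markers were higher and 3 lower, with a median of 0.02. Of other cell types, 1 of 5 leukocyte, 1 of 6 fibroblast, 1 of 4 endothelial and 0 of 4 intestinal markers reached the floor on some array, and PTPRC, COL1A2, CDH5 and VIL1 stayed below it. The leukocyte marker above it, CD68, read 8.60 in Δe13, 8.44 in the wild type and 8.97 in the control. PDGFRB and PECAM1 lay close to the floor, at most at 6.17 and 6.22. In such bulk RNA, fewer cells with a transcript and less of it per cell cannot be told apart.

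None of the subunits differed by 1.5-fold. HIF1A had signals of 11.53 in the Δe13, 11.43 in the wild-type and 11.59 in the empty vector array. That was 0.10 higher in Δe13 than in the wild type, and 7 of its 8 probe sets had this sign. Against the control the wild-type array was lower on 8 of 8, by -0.46 to -0.12, the direction of most targets. The Δe13 array was lower than the control on 7 of 8 (range -0.25 to 0.06), where 19 of 25 targets were higher. EPAS1, the alpha subunit of HIF-2, gave 9.21, 9.02 and 9.17 in the same order. ARNT, the shared partner, gave 6.54, 6.77 and 6.63, highest in the wild-type array, but of its 3 probe sets above the floor the other two were higher in Δe13. Several probe sets of one gene spread by a standard deviation of 0.12 for Δe13 minus either array and of 0.15 for wild type minus empty vector. For Δe13 minus wild type, EPAS1 at 0.19 and ARNT at -0.23 lay beyond that spread and HIF1A within it. That spread covers probe set error, not the spread between cultures.

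Among the oxygen sensors, EGLN1, the main prolyl hydroxylase and itself a HIF target, was lower in both LOXL2 arrays. Its signals were 8.90 in Δe13, 8.93 in the wild type and 9.16 in the control, and its 3 probe sets were lower than the control in both, by -0.22 to -0.44. HIF1AN, the asparagine hydroxylase, gave 7.75, 7.87 and 7.94 in that order. VHL, the substrate receptor of the ubiquitin ligase, gave 8.73, 8.68 and 8.71. The prolyl hydroxylase EGLN3, in many cells a steep HIF target, had signals between 3.13 and 3.68 on its 3 probe sets, below the floor everywhere. The 6 regulators above the floor had a median of 0.01 for Δe13 minus wild type, 3 higher and 3 lower, where that of the targets was 0.26. Against the control their medians were -0.07 for Δe13 and -0.11 for the wild type.

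**Figure D3:**
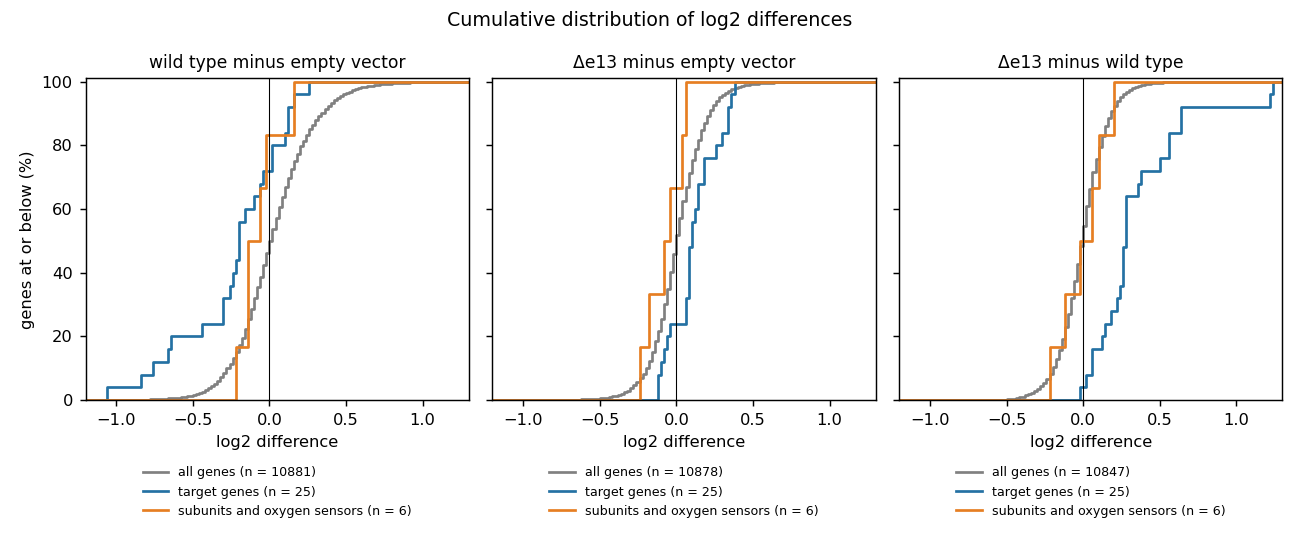
Share of genes (y axis, percent) at or below a log2 difference (x axis) in the 3 comparisons, for all genes, the 25 targets and the 6 subunits and oxygen sensors above the floor. The targets lie left of all genes in the wild type (median -0.20) and right of them for Δe13 minus wild type (median 0.26), where the regulators follow all genes closely.

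HILPDA, a small protein that coats lipid droplets and inhibits the lipase ATGL, had signals of 11.37 in the Δe13, 10.17 in the wild-type and 11.25 in the empty vector array. The wild-type array thus stood alone, 2.11-fold below the control and 2.3-fold below Δe13. Both probe sets gave the same differences between arrays to within 0.04, 1.20 and 1.21 for Δe13 minus wild type. Both carry the suffix x, which marks probe sets that may also match other transcripts. HILPDA ranked 7 from the lowest of 10881 genes for wild type minus control and 2 from the highest of 10847 for Δe13 minus wild type.

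ANKRD37, an ankyrin repeat protein whose upstream window holds 2 separate core positions in the sequence above, had signals of 10.36, 9.12 and 9.98 in the order Δe13, wild type and control. It was 1.81-fold lower in the wild type and 1.3-fold higher in Δe13 than in the control, and ranked 1 of 10847 for Δe13 minus wild type at 2.35-fold. Its dim second probe set, below the floor, gave 1.25 for the same comparison. Here the 3 arrays were well separated, with the control in between.

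DDIT4, the mTORC1 inhibitor also called REDD1, gave 12.54, 12.00 and 12.66 on its single probe set. NDRG1, a widely used hypoxia marker, gave 12.59, 12.10 and 12.54. Both had the wild-type array lowest, by -0.66 and -0.44 against the control, with Δe13 within 0.12 of the control. NDRG1 was represented by its brightest probe set, which had the smallest difference of 6: over them, Δe13 minus wild type ran from 0.49 to 0.83. DDIT4 is induced by endoplasmic reticulum and amino acid stress as well as by HIF.

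The remaining targets of mixed function showed smaller gaps. ANKZF1, a factor of ribosome quality control, gave 8.96, 8.61 and 8.86 in Δe13, wild type and control. TMEM45A, a transmembrane protein of keratinocytes, gave 10.65, 10.48 and 10.33, with the control lowest rather than the wild type. WSB1, a ubiquitin ligase receptor, gave 11.48, 11.21 and 11.38 on its brightest probe set. WSB1 was the member whose probe sets disagreed most: a dimmer one read 6.08 in Δe13, 6.99 in the wild type and 7.30 in the control, and another read 6.29, 6.75 and 7.26. On these Δe13 was lower than the control by -1.21 and -0.97, while the brightest was 0.09 higher. Which transcripts of WSB1 each one reads is not known here. With a gene read on each array as the median signal over all its probe sets, those below the floor included, WSB1 was at -1.18 for Δe13 minus control. That value sets different probe sets against each other, 6.08 in Δe13 and 7.26 in the control, and is not a median of their differences.

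**Figure D4:**
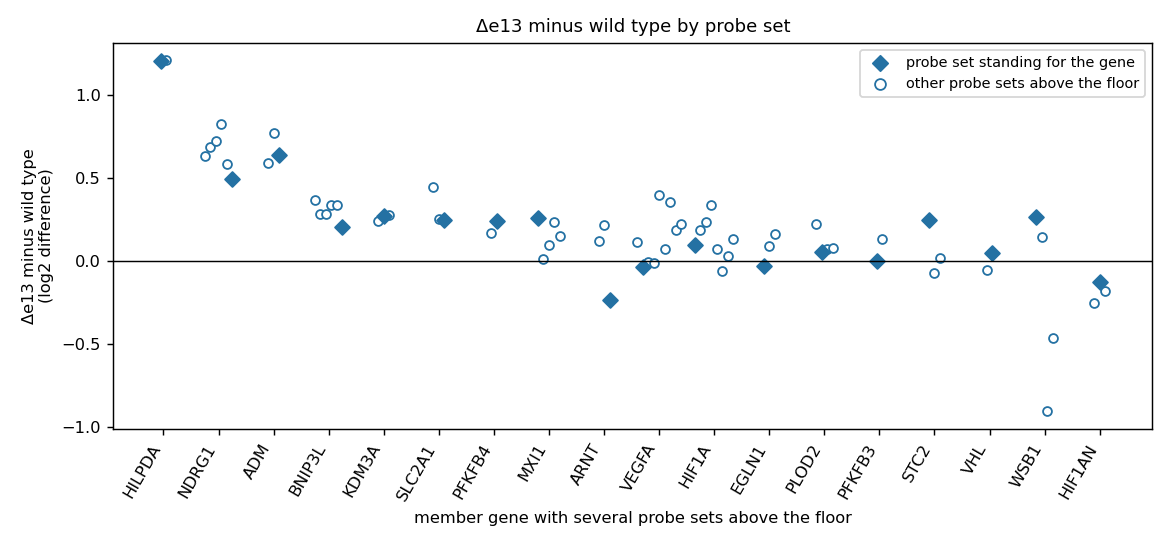
Log2 difference of Δe13 minus wild type (y axis) for each probe set above the floor, in members with more than 1 such probe set; diamonds mark the probe set that stands for the gene. HILPDA, NDRG1, ADM and BNIP3L have each probe set above 0, whereas those of WSB1 run from -0.90 to 0.27.

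Of the 13 targets with several probe sets above the floor, 10 had one sign throughout for Δe13 minus wild type, the exceptions being STC2, VEGFA and WSB1. Over single probe sets, 58 of the 64 of target genes were higher in Δe13. For wild type minus control 53 of 64 were lower, and for Δe13 minus control 44 of 64 were higher. Probe sets of a gene share its transcript and are not replicates.

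Secreted factors held one of the larger gaps. ADM, adrenomedullin, a vasodilator peptide, gave 12.46 in Δe13, 11.83 in the wild type and 12.60 in the control, 1.71-fold lower in the wild type than in the control. Its 3 probe sets ran from -1.01 to -0.68 for that comparison, and the upstream window of ADM held no core. Wild-type ADM lay apart, and Δe13 lay 0.14 below the control. ANGPTL4, an inhibitor of lipoprotein lipase, gave 6.39, 6.13 and 6.33, close to the floor. STC2, stanniocalcin, gave 7.58, 7.34 and 7.24, with the control lowest.

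VEGFA, the angiogenic growth factor and a classic target, did not share the pattern on its brightest probe set. That probe set read 9.80 in Δe13, 9.84 in the wild type and 9.74 in the control. Of its 9 probe sets above the floor, 6 were higher in Δe13 than in the wild type, by 0.07 to 0.40, and 3 were lower by at most -0.04. Those 3 were the brightest of them. Read on each array as the median signal over all its probe sets, VEGFA was at 0.29 for Δe13 minus wild type, so its direction depended on that choice. That value is a difference of median signals and not the median of the differences above.

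In the mitochondrial group, BNIP3, a receptor of mitophagy, gave 9.72, 9.10 and 9.38 in Δe13, wild type and control. It was 1.27-fold higher than the control in Δe13 and 1.21-fold lower in the wild type, so the arrays differed in opposite directions. Its relative BNIP3L gave 10.86, 10.66 and 10.73, and its 6 probe sets, 2 of which hold identical values, were 0.20 to 0.37 higher in Δe13 than in the wild type. FAM162A, a mitochondrial protein linked to cell death under hypoxia, gave 11.36, 11.11 and 11.32. The 3 genes thus had the same order at the bottom, wild type lowest.

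Genes of glucose uptake and energy differed by less. SLC2A1, the glucose transporter GLUT1, gave 10.79, 10.55 and 10.86, lower in the wild type than in the control by -0.31 with 3 of 3 probe sets in that direction. PDK1, the kinase that shuts pyruvate dehydrogenase, gave 9.17, 9.05 and 9.28. PFKFB4, a regulator of glycolytic flux, gave 8.52, 8.28 and 8.26. On this probe set of PFKFB4 the Δe13 array stood alone, with wild type and control 0.02 apart. Its other probe set above the floor read 6.26, 6.09 and 6.20, with the wild type lowest. AK4, a mitochondrial adenylate kinase, gave 10.08, 9.96 and 10.01. PFKFB3, the other flux regulator listed, gave 10.03, 10.03 and 9.91, with no difference between the LOXL2 arrays. The median of these 5 for Δe13 minus wild type was 0.12, with 0 of them at 1.5-fold.

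The collagen-modifying enzymes act upstream of the cross-links that LOXL2 forms outside the cell. P4HA1, a prolyl 4-hydroxylase subunit, gave 9.55, 9.17 and 9.38, with Δe13 above and the wild type below the control. P4HA2, its relative, gave 9.92, 9.86 and 9.62, higher than the control in both LOXL2 arrays, by 0.30 and 0.24. PLOD2, the lysyl hydroxylase of telopeptides, gave 9.64, 9.59 and 9.58 on its brightest probe set. On 3 of its 4 probe sets the wild type was lowest, by -0.20 to -0.0063 against the control. These enzymes therefore did not share one order of arrays.

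Among nuclear regulators, BHLHE40, a repressor also known as DEC1, gave 8.67, 8.12 and 8.76, 1.56-fold lower in the wild type than in the control on 1 probe set. MXI1, a MYC antagonist, gave 10.93, 10.67 and 10.99. KDM3A, a histone H3 lysine demethylase, gave 9.55, 9.28 and 9.39. Each of these had the wild-type array lowest. RORA, a nuclear receptor, read at most 3.23 on 3 probe sets. For acid handling, CA12, a membrane carbonic anhydrase, read 5.58, 5.46 and 5.70, below the floor, and CA9 was not analysed here.

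The gap between Δe13 and wild type was similar across signal levels. For targets with a mean of 10 or more, 11 of 11 were higher in Δe13, with a median of 0.26 against -0.01 for the 1893 genes of that level. For those from 8 to 10, 11 of 12 were higher, with a median of 0.25 against -0.04. Against the control, the brighter targets had a median of -0.31 in the wild type, and those from 8 to 10 of -0.16. For Δe13 minus wild type, each compared target with a promoter window was higher in Δe13, so the core could not set directions apart. The 13 with the core and the 7 without it had medians of 0.26 and 0.24. In wild type minus control, 11 of 13 with the core and 3 of 7 without it were lower, against 49.9% of all genes. Their medians were -0.20 and 0.02, and ADM at -0.78 was the lowest of those without. All genes were not split by the core, and the difference between these small sets was not tested. Targets with no window, HILPDA, NDRG1, ANKZF1, BNIP3L and VEGFA, were left out of both sets. Of them all but VEGFA (0.10) were lower in the wild type than in the control, HILPDA by -1.08.

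Other genes of the pathway were read from 3 lists made from general knowledge. HIF machinery outside the members (coactivators, VHL complex subunits, HIF3A and ARNT2) had 14 of 15 genes above the floor, 6 higher and 8 lower in Δe13 than in the wild type, with 0 at 1.5-fold and a median of -0.02. Its widest gaps were in CITED4 at 0.33, EP300 at -0.25, CREBBP at -0.18 and SIAH2 at 0.17. The coactivators EP300 and CREBBP were higher than the control in both LOXL2 arrays, by 0.29 and 0.35 in Δe13 and by 0.53 and 0.53 in the wild type. CITED4, an inhibitor of coactivator binding, was lower than the control by -0.21 and -0.54.

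Glycolytic HIF targets were higher in Δe13 than in the wild type for 15 of 16 genes, against 45.2% of all genes. Their median was 0.12, against -0.015 for all genes, with 0 at 1.5-fold. The widest gaps were in ALDOC (0.47), ENO2 (0.41), HK2 (0.36) and GPI (0.35). ALDOC, an aldolase, was at least 1.5-fold lower than the control in both LOXL2 arrays, at 8.98 in Δe13, 8.51 in the wild type and 9.58 in the control. Other targets were higher for 17 of 21 genes, with a median of 0.10, and 1 of them, ERO1A, was at 1.5-fold (0.184% of all genes were this much higher). The medians of both lists were no larger than that of the polyA spike-ins in this comparison, 0.12. With differences taken relative to the spike-ins they were -0.0061 and -0.024, against -0.14 for all genes. The part of this array shift was not tested. ERO1A, the oxidase that supplies disulfides in the endoplasmic reticulum, gave 10.48, 9.87 and 10.26, an order like that of BNIP3. CCNG2, a cyclin linked to growth arrest, VLDLR, a lipoprotein receptor, and PLAUR, the urokinase receptor, were 0.45, 0.39 and 0.39 higher in Δe13 than in the wild type, and in Δe13 they stood at -0.06, -0.14 and 0.05 against the control.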

How the data were processed

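Total RNA of 3 KYSE150 samples was hybridised to PrimeView arrays, 1 array per group. The authors deposited log2 signals per probe set from RMA (robust multi-array average), which the authors ran, per the submitters' processing notes; its version is not given here. The log2 scale was read from the values, 2.07 to 14.56. RMA forces arrays onto like distributions, which hides a shift of most genes. Depth has no meaning for arrays; their number limits precision.

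Of 49395 probe sets, 102 were controls, 44994 had 1 symbol (updated by Entrez ID through RefSeq GRCh38.p14) and 1832 several. The array medians were 5.95, 5.93 and 5.95. Differences were taken in 3 comparisons and counted at 1.5-fold. Alternatives were the median over probe sets, no floor at all, a higher floor (the percentile 75, at 7.86), median centring, quantile normalization, loess with a span of 0.3, sizes of 2-fold and 1.3-fold and, added after seeing the data, spike-in scaling. The members and lists were chosen with earlier results of these data known. Named genes were the members and, of each other list, the 4 with the widest gap between Δe13 and wild type; others were chosen after their values were seen. The counting was tested on simulated data. Promoter windows came from RefSeq, with 30 members matched. Python 3.11.15 was used with numpy 2.4.6, pandas 2.3.3, scipy 1.17.1, statsmodels 0.14.6 and matplotlib 3.10.9.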

Additional observations from a re-analysis of the deposited data

Results flagged for a closer look

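Several genes differed from the empty vector in opposite directions in the LOXL2 arrays, by more than the spread between probe sets in each. The difference between the arrays was not tested, since each group had 1 array, and both share the control. ANKRD37 was 0.38 above the control in Δe13 and -0.86 in the wild type, a gap of 1.24. HILPDA was at 0.12 and -1.08, a gap of 1.20. BNIP3 was at 0.35 and -0.28 (0.63), and P4HA1 at 0.18 and -0.20 (0.38). Outside the members, ERO1A was at 0.22 and -0.39 (0.61) and HK2 at 0.21 and -0.16 (0.36). HILPDA in Δe13, at 0.1229 against a spread of 0.12, and HK2 in the wild type, at -0.1551 against 0.152, only just passed. Scaled to the polyA spike-ins, HILPDA in Δe13 stood at 0.098, inside that spread. In the wild type, BNIP3 and P4HA1 lay within the range of the background probe sets rich in G and C (-0.29 to -0.18). The part of such array shifts in these differences was not tested.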

How the results depend on the processing

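No paired analysis was possible because the labels give no replicate numbers and each group has 1 array. Directions of the 1.5-fold differences of named genes held under each alternative run, with HILPDA between 1.08 and 1.23 and ANKRD37 between 1.11 and 1.28 for Δe13 minus wild type. With a gene read on each array as the median signal over its probe sets, 1 member (WSB1) was lower at 1.5-fold for Δe13 minus control. The same member was lower at that size for Δe13 minus wild type. For WSB1 these medians come from different probe sets on the arrays compared. Targets higher for wild type minus control were then 4 instead of 7. PFKFB3 and PFKFB4, both among the 7, lay below the floor under that reading and left the count. Under that reading the glycolytic list had 0 genes at 1.5-fold for Δe13 minus control (1 before), the machinery list 1 and the other-target list 1 for wild type minus control (0 before), and the other-target list 2 for Δe13 minus wild type. At 2-fold, 1 member was lower in the wild type than in the control and 2 were higher in Δe13 than in the wild type, while the glycolytic list for Δe13 minus control and the other-target list for Δe13 minus wild type had 0. At 1.3-fold, 1 member was higher in Δe13 than in the control and 8 than in the wild type. The other-target list then had 1, 5 and 4 genes for Δe13 minus control, wild type minus control and Δe13 minus wild type, the machinery list 3 in the second and the glycolytic list 2 in the third.

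Scaling to the polyA spike-ins moved the median of all genes to 0.11 for wild type minus control and -0.14 for Δe13 minus wild type. Members at 1.5-fold were then 3 lower in the wild type and 2 higher in Δe13 than in the wild type; the machinery list had 2 and the other-target list 1 for wild type minus control, and the other-target list 0 for Δe13 minus wild type. Medians of Δe13 minus wild type were then 0.14 for the targets, -0.11 for the regulators, -0.15 for the machinery, -0.0061 for the glycolytic and -0.024 for the other targets, each shifted by the same constant as all genes. Shares of all genes at 1.5-fold were not counted on that scale or under the median over probe sets. The counts given for those settings therefore have no background beside them. Sign changes occurred in 38 of 878 values of named genes, none of them at 1.5-fold in the main setting. Members near the floor, such as ANGPTL4 and ARNT, hold much background, which compresses differences.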
